A study of Rattus norvegicus with 12 samples.

Results

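The clustered histone genes encode the histone proteins needed in bulk when DNA is copied, and they lie in a few stretches of the rat genome. They were taken as the genes whose symbol begins with Hist1h, Hist2h, Hist3h or Hist4h, which gave 45 of the 32883 genes listed in the deposited tables. By symbol, 6 encode the linker histone H1, 13 H2A, 10 H2B, 8 H3 and 8 H4. On the rat build rn6, 33 of them lay on chromosome 17, 7 on chromosome 2, 3 on chromosome 4 and 2 on chromosome 10.

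H2A, H2B, H3 and H4 form the nucleosome core around which DNA is wound, and H1 binds the DNA between nucleosomes. Most mRNAs of these genes have no introns, end in a stem-loop instead of a poly(A) tail, and are made mainly in S phase, when new DNA is packed. Other histone genes, such as those of H3.3 and H2A.Z, stand alone in the genome, give polyadenylated mRNA and are also read outside S phase, which matters in heart muscle, where most cells leave the cell cycle soon after birth.

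Total RNA was sequenced from heart muscle cells of Sprague-Dawley rats aged 1 to 3 days, in a study whose title concerns P-TEFb (the kinase that releases paused RNA polymerase II) and cardiomyocyte hypertrophy. Ribosomal RNA was depleted and the labels name no poly(A) selection, so histone mRNA that ends in a stem-loop was within reach. There were 6 groups of 2 libraries, each treated for 24 h. Endothelin-1 (ET-1, 100 nM) with JQ1 (1 µM) stood beside ET-1 with DMSO, phenylephrine (PE, which activates alpha-1 adrenergic receptors, 10 µM) with JQ1 beside PE with DMSO, and acetic acid vehicle with JQ1 beside vehicle with DMSO. JQ1 blocks the bromodomains of the BET proteins, which bind acetylated histones. Cells of all 6 groups had been plated at 40000 per cm2, had 7% serum for the first 24 h only, and had AraC (cytosine arabinoside, 10 µM, a blocker of DNA synthesis) in the medium until 24 h before treatment. The labels leave unsaid whether replicates came from different animals or dishes, and the p-values below reflect the library-to-library spread alone, which may be technical.

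Covered bases came to 2.34 to 2.97 Gb (gigabases) per library, and the histone genes took 0.105 to 0.205% of them. All 8 cardiomyocyte markers were tested, with a summed level of 17751 to 28702 FPKM in JQ1 libraries and 13137 to 25069 FPKM in DMSO libraries. Much of that gap came from Tnnt2, with 10405 and 14801 FPKM in vehicle with JQ1, against 5089 and 6813 FPKM with DMSO. Tnni3 was lower, with 852 and 1563 FPKM, against 1702 and 2379 FPKM. The 10 fibroblast markers summed to 112 to 667 FPKM in JQ1 libraries and 217 to 1351 FPKM in DMSO libraries, and in each group replicate 2 was the lower of the pair. Endothelial markers summed to 0.287 to 5.46 FPKM and macrophage markers to 0.33 to 9.39 FPKM.

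Levels below are FPKM (fragments per kilobase of transcript, scaled to library size, the authors' values) summed per gene and rescaled between libraries. Differences are in log2(FPKM + 0.5), given with their SE, from limma over all 13793 genes that reached 1 FPKM in at least 2 libraries, and a gene is called at a Benjamini-Hochberg adjusted p under 0.05. Of the 45 members, 44 were tested. Hist1h1t, the testis form of H1, had 0.151 to 0.826 FPKM and was not. Near-identical copies share reads, so the value of one copy is less certain than the sum of its class. Hist2h2aa3 and Hist2h2aa2 held the same value in every library within 1%, as did Hist1h4b and Hist2h4, so each pair is 1 signal counted as 2 members. The symbols Hist2h3c2 and Hist2h4a stood on 5 gene identifiers each, and Hist1h2an and Hist1h3a on 2 each, so these are named with the last digits of their identifier. Many single-exon models are of coding length, 393 nt for most H2A, 411 for H3 and 312 for H4. For H2B that length is 381 nt, but Hist3h2ba has 630 nt, Hist3h2bb 748, Hist1h2ba 470 and Hist1h2bd 382. The H2A model Hist1h2an (57700) has 602 nt. Hist1h2ao has the length of an H4 gene, and Hist1h2ail1 that of an H3 gene.

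Promoters are shown for 5 members that span the range of differences under JQ1. Hist1h2ak, Hist1h2bd and Hist1h1e fell, Hist1h1c rose, and Hist2h2aa3 did not pass the test. Each line gives the 250 bases before the gene start, 5′ to 3′ on the gene's strand, from RefSeq on build GRCr8, whose coordinates differ from those of rn6. Capitals mark motifs searched on both strands with overlaps allowed, namely the octamer ATTTGCAT, the CCAAT box CCAAT, the TATA box TATAAA and the H1 box AAACACA.
Hist1h2ak (chr17:47496128-47496377, minus strand): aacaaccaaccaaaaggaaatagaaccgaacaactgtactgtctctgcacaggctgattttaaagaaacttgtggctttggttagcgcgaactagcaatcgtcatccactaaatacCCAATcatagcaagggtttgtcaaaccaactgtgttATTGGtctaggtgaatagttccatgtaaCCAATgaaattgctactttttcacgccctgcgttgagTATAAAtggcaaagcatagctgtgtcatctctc
Hist1h2bd (chr17:47489009-47489258, minus strand): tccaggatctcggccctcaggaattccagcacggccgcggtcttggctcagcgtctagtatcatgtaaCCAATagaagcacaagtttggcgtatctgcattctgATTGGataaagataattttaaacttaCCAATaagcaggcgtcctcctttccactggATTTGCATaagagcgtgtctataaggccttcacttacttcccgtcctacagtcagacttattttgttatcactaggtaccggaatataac
Hist1h1e (chr17:41914175-41914424, plus strand): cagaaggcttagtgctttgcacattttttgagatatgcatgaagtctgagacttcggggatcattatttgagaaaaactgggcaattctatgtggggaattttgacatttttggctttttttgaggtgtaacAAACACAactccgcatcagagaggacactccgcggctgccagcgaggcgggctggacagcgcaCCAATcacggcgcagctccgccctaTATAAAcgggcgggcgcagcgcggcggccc
Hist1h1c (chr17:41820454-41820703, minus strand): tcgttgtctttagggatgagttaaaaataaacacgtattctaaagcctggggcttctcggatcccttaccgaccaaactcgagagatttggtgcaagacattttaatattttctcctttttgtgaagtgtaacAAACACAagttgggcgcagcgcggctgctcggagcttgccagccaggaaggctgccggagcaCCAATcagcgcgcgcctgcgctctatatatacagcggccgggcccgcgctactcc
Hist2h2aa3 (chr2:186490765-186491014, minus strand): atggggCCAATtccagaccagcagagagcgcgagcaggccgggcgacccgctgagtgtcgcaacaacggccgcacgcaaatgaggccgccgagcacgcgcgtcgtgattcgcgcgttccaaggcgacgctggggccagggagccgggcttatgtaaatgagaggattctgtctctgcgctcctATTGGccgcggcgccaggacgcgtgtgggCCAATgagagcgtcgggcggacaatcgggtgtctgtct

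Of the 45 members, 37 had their name in the promoter table, and 21 could be matched by name, chromosome, strand and order. The matched ones were 6 of H1, 7 of H2A and 8 of H2B, so the motif shares do not cover H3 or H4 genes. CCAAT stood in 21 of these 21 windows, against 34.0% of all 33469 promoters of the same length. TATAAA stood in 14 of 21, against 12.9% of all promoters, and the octamer in 8 of 21, against 1.56%. The octamer, known as an element of H2B promoters, was in 5 of 8 H2B windows, 3 of 7 H2A windows and 0 of 6 H1 windows. The H1 box was in 5 of 6 H1 windows, 1 of 7 H2A windows and 1 of 8 H2B windows, against 6.08% of all promoters. The windows of 2 head-to-head pairs overlap and hold the same number of each motif: Hist2h2ac and Hist2h2be share 225 of their 250 bases on GRCr8, and Hist1h2aa and Hist1h2ba share 239. Hist1h1c, which rose under JQ1, and Hist1h1e, which fell, both hold AAACACA and CCAAT. Hist1h1e also holds TATAAA, and the Hist1h1c window has tatatata near its end, which the search for exact letters does not count. Any tie between motifs and JQ1 differences was not tested.

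Under JQ1 most histone genes of chromosome 17 fell, in ET-1-treated, PE-treated and vehicle-treated cells alike. In ET-1-treated cells 31 of 44 members were called lower and 2 higher, where 19.6% and 17.9% of all tested genes were called lower and higher. In PE-treated cells 21 were lower and 2 higher, beside 19.0% and 17.5% of all genes. In vehicle-treated cells 18 were lower and 2 higher, beside 16.7% and 15.3% of all genes. The members called lower were 70.5% with ET-1, 47.7% with PE and 40.9% in vehicle, each above the share of all genes, while the 4.55% called higher in each treatment was below it. The same 17 members were called lower in all 3 treatments, and Hist1h1c and Hist2h4a (54017) were called higher in all 3. The share of all tested genes called alike in all 3 was not computed, so these counts have no background beside them. The members' median log2 difference was -1.05 with ET-1, -0.46 with PE and -0.43 in vehicle, against 0.03, 0.01 and 0.01 over all tested genes. In vehicle the count rested on single libraries, since without replicate 1 of vehicle with JQ1 it was 5 lower and 2 higher, and likewise 5 and 2 without replicate 2 of vehicle with DMSO.

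The calls differed in number by chromosome. Of the 32 tested members on chromosome 17, 28 were called lower with ET-1, 21 with PE and 18 in vehicle. Of the 7 on chromosome 2, 1 was called lower with ET-1 and 0 with PE or in vehicle, with medians of -0.03, 0.25 and 0.22 on the log2 scale. The chromosome 4 pair Hist1h4b and Hist2h4, which is 1 signal, was called lower with ET-1, and neither chromosome 10 member was called in any treatment. Under the model with the replicate number, Hist3h2bb of chromosome 10 (limma adjusted p = 0.0136, against 0.0907 without it) and Hist2h3c2 (53081) of chromosome 2 (0.0345, against 0.0516) were also called lower with ET-1. Averaged over the treatments, 31 members were lower and 2 higher, beside 29.9% and 30.2% of all genes. These became 33 and 6 with the replicate number in the model, beside 36.9% and 36.6%, and the 4 added higher ones were Hist2h2aa3 and Hist2h2aa2, which are 1 signal, Hist2h2ab and Hist3h2ba. The number higher was 5 without replicate 1 of vehicle with JQ1 or replicate 2 of vehicle with DMSO, and 2 to 6 with the replicate number in the model and any one library left out. All 6 JQ1 libraries lay below all 6 DMSO libraries for 18 members, a pattern seen in 18.5% of all tested genes, and above them for 2, a pattern seen in 17.9%. The order of the members was much alike in the treatments, which share no libraries here: Pearson's r of the JQ1 difference across the 44 members was 0.984 between ET-1 and PE, 0.967 between ET-1 and vehicle and 0.969 between PE and vehicle. These are descriptions, since copies share reads and are not independent.

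**Figure D1:**
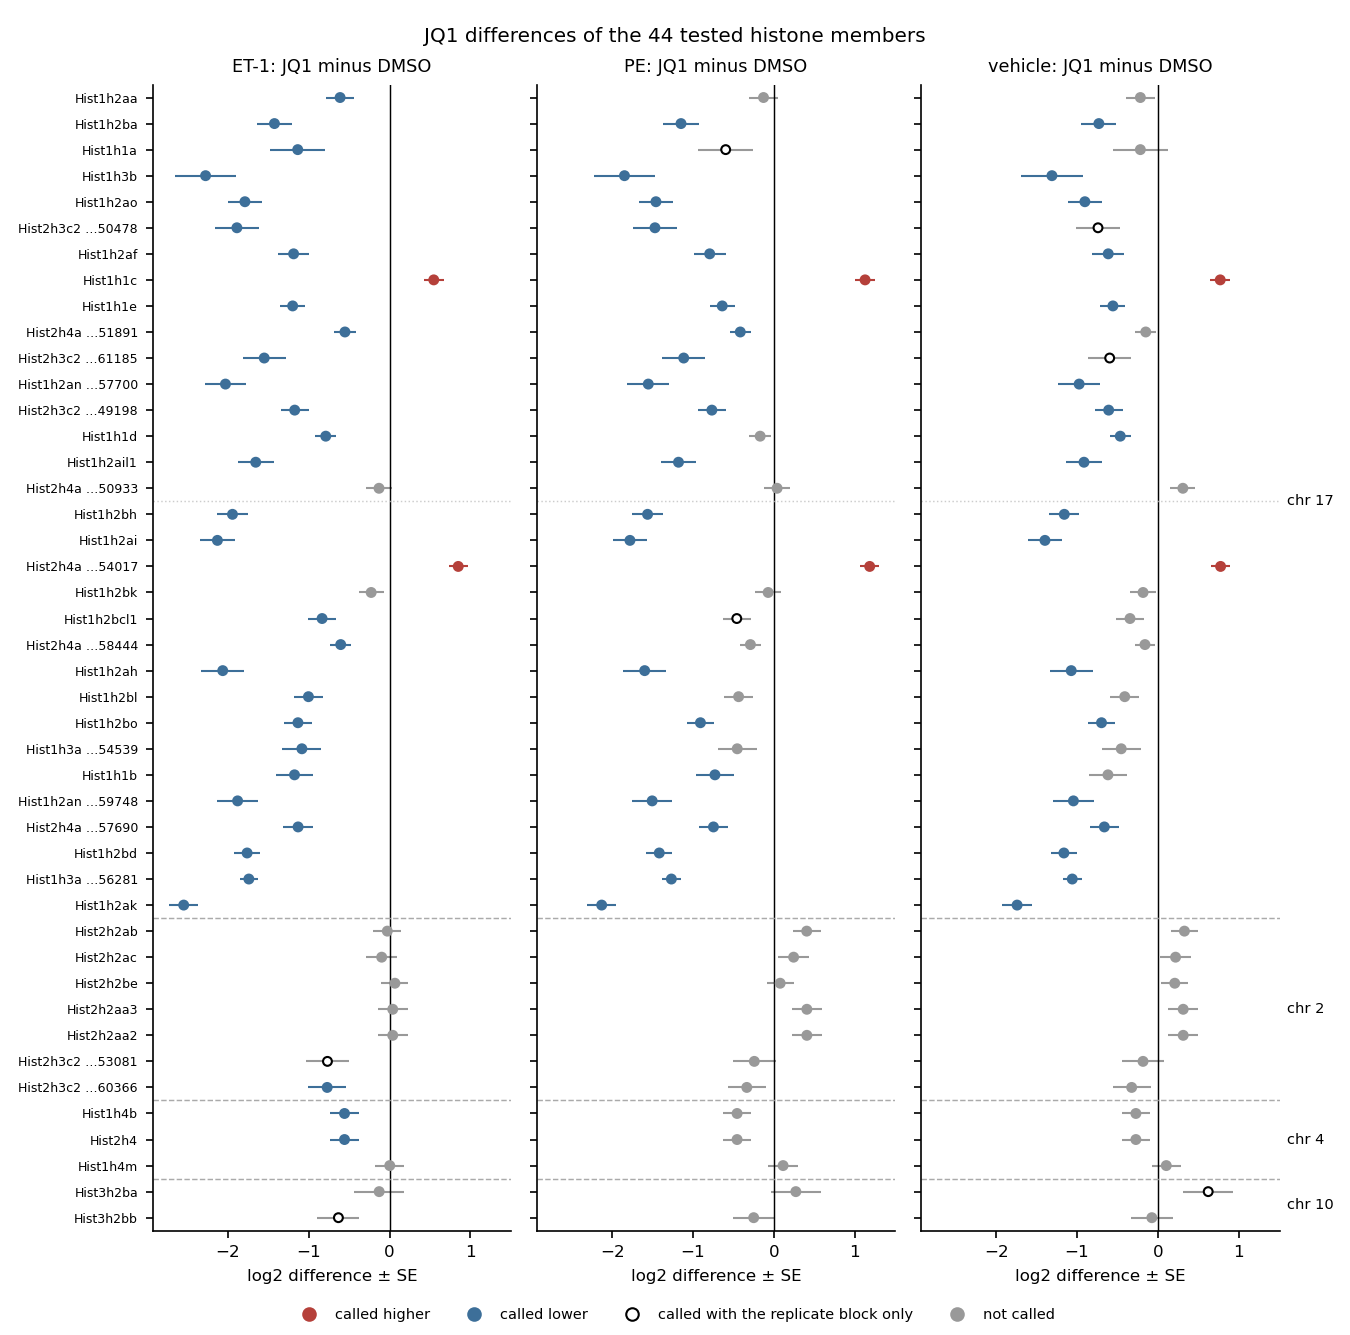
Log2 difference (JQ1 minus DMSO, x axis, ± SE) of each of the 44 tested histone members (y axis, in genome order by chromosome) in ET-1, PE and vehicle, with colours for limma calls and open circles for calls made only with the replicate number in the model. On chromosome 17 Hist1h1c and Hist2h4a (54017) stand right of 0 in all 3 panels and most others left of 0, while the chromosome 2 members lie nearer 0.

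The core histone H2A, which pairs with H2B in the nucleosome, had the member that fell furthest. Hist1h2ak (chromosome 17, 44840990 to 44841382 on rn6) had in ET-1 7.36 and 6.64 FPKM with JQ1, against 49.98 and 37.6 FPKM with DMSO. In PE it had 8.27 and 6.44 FPKM with JQ1, against 34.7 and 32.6 FPKM with DMSO, and in vehicle 10.6 and 14.03 FPKM with JQ1, against 39.4 and 44.8 FPKM with DMSO. The groups did not overlap in any treatment, and all 6 JQ1 libraries lay under all 6 DMSO libraries. Its log2 difference was -2.55 ± 0.18 with ET-1, -2.13 ± 0.18 with PE and -1.74 ± 0.18 in vehicle, the lowest of the 44 members in each (limma adjusted p = 9.31e-05, 0.000185 and 0.000533). Hist1h2ai, another H2A copy, had -2.13, -1.78 and -1.40 in the same order of treatments, each called. Of the 13 H2A members, 9 fell with ET-1, 8 with PE and 8 in vehicle, beside 19.6%, 19.0% and 16.7% of all genes. Each of the fallen H2A members lies on chromosome 17. Hist1h2aa, known as a testis form, was called lower with ET-1 (-0.61) and was not called with PE (-0.13) or in vehicle (-0.22).

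Averaged over the 12 libraries, the 4 H2A genes of chromosome 2 held the 3 highest H2A levels, and none was called under JQ1 in any one treatment. In DMSO groups Hist1h2ao of chromosome 17 was higher than each of them with ET-1 (278 FPKM, against 253 for Hist2h2aa3) and with PE (201 against 200.4), and higher than Hist2h2ac in vehicle (242 against 220.5). Hist2h2aa3 (chromosome 2, 198381798 to 198382190) had in ET-1 260.3 and 257 FPKM with JQ1, against 274 and 231 FPKM with DMSO. Its PE libraries held 259 and 273 FPKM with JQ1, against 197 and 204 FPKM with DMSO, and in vehicle 299 and 417 FPKM with JQ1, against 247 and 326 FPKM with DMSO. The JQ1 libraries were the higher ones in PE, and the groups overlapped in ET-1 and in vehicle. Its log2 difference was 0.04 ± 0.18 with ET-1, 0.41 ± 0.18 with PE and 0.31 ± 0.18 in vehicle (limma adjusted p = 0.891, 0.118 and 0.230), and the ET-1 value was -0.066 with FPKM as deposited. Averaged over the treatments, Hist2h2aa3 and Hist2h2ab had 0.25 and 0.24 and were called higher only with the replicate number in the model (limma adjusted p = 0.0423 and 0.0497, against 0.0693 and 0.0694 without it). Hist2h2ac, its neighbour, had -0.10, 0.25 and 0.22. Hist2h2ab, the lowest of the 4, had -0.03, 0.41 and 0.33. With classes by symbol, the chromosome 2 genes held 76.3 to 84.2% of the summed H2A level in JQ1 libraries. In DMSO libraries they held 52.6 to 60.3%, and the 2 ranges did not overlap. That sum includes Hist1h2ao and Hist1h2ail1, whose models have the lengths of H4 and H3 genes. Shares with classes by coding length were not computed. Some H2A genes of both chromosomes lie over antisense gene models, and no source used here gives the strand setting of the quantification.

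H2B genes are partly placed head to head with H2A genes. Hist1h2bd (chromosome 17, 44833924 to 44834305), which in human cells is also made as polyadenylated mRNA, had in ET-1 14.8 and 12.9 FPKM with JQ1, against 52.6 and 44.1 FPKM with DMSO. With PE it stood at 14.8 and 12.1 FPKM with JQ1, against 35.5 and 37.5 FPKM with DMSO, and in vehicle 19.1 and 23.8 FPKM with JQ1, against 44.01 and 53.3 FPKM with DMSO. The JQ1 libraries were the lower ones in every treatment. The log2 difference of Hist1h2bd was -1.76 ± 0.16 with ET-1, -1.42 ± 0.16 with PE and -1.16 ± 0.16 in vehicle (limma adjusted p = 0.000205, 0.000515 and 0.00150). Hist1h2bh starts 296 bases from Hist1h2ai in the opposite direction and fell like it, with -1.95, -1.56 and -1.16. In the pair Hist1h2ah and Hist1h2bl, 293 bases apart, the H2A gene was called in each treatment (-2.07, -1.60 and -1.07), and the H2B gene with ET-1 only (-1.01, -0.43 and -0.41).

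Hist1h2bk, also on chromosome 17, was the highest H2B gene under JQ1 and was not called. It had in ET-1 102 and 87.3 FPKM with JQ1, against 125 and 97.9 FPKM with DMSO. In vehicle it had 92.6 and 98.8 FPKM with JQ1, against 105 and 113 FPKM with DMSO. The ET-1 groups overlapped, and the vehicle groups lay side by side with the JQ1 libraries lower. Its log2 difference was -0.23 with ET-1, -0.07 with PE and -0.18 in vehicle. Of the 10 H2B members, 6 fell with ET-1, 4 with PE and 4 in vehicle, beside 19.6%, 19.0% and 16.7% of all genes. Among the fallen members was Hist1h2ba, the testis H2B, read here at 9.78 to 24.4 FPKM under JQ1 and 25.2 to 41.5 FPKM with DMSO. Hist2h2be, which in mouse is known from olfactory neurons, starts 319 bases from Hist2h2ac, yet it averaged 3.71 FPKM over the 12 libraries against 201 FPKM for its neighbour. Neither was called with JQ1. Hist3h2ba on chromosome 10 had 0.62 in vehicle and was called higher only with the replicate number in the model (limma adjusted p = 0.00923, against 0.160 without it), where 24.9% of all genes were called higher in that model.

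H3 carries on its tail many of the marks that chromatin proteins read. Of the 8 H3 members, 7 fell with ET-1, 5 with PE and 3 in vehicle, beside 19.6%, 19.0% and 16.7% of all genes. The vehicle count was 5 with the replicate number in the model, beside 27.9% of all genes. Hist1h3b (chromosome 17, 43616247 to 43616657) had in ET-1 19.7 and 9.47 FPKM with JQ1, against 78.9 and 59.1 FPKM with DMSO. Its level in PE was 19.4 and 9.70 FPKM with JQ1, against 57.4 and 44.99 FPKM with DMSO, and in vehicle 25.9 and 24.1 FPKM with JQ1, against 61.7 and 63.5 FPKM with DMSO. The groups did not overlap, and within JQ1 replicate 2 was the lower library. Hist1h3b had log2 differences of -2.28 ± 0.38 with ET-1, -1.85 ± 0.38 with PE and -1.31 ± 0.38 in vehicle (limma adjusted p = 0.00252, 0.00658 and 0.0315). The vehicle call was lost without any one of its 4 libraries, without the filter on low genes (adjusted p = 0.0522) and with FPKM as deposited (0.0577). Hist1h3a (56281) was the lowest H3 copy and fell with a small spread, with 5.69 and 6.37 FPKM with JQ1, against 12.6 and 13.6 FPKM with DMSO in vehicle and a log2 difference of -1.06 ± 0.12 (limma adjusted p = 0.000591).

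The 2 H3 genes of chromosome 2, both named Hist2h3c2, had smaller differences. Hist2h3c2 (60366) had in ET-1 49.6 and 42.8 FPKM with JQ1, against 91.4 and 68.5 FPKM with DMSO, and in vehicle 70.96 and 107 FPKM with JQ1, against 92.7 and 128 FPKM with DMSO. The ET-1 groups were apart and the vehicle groups overlapped. It was called lower with ET-1 (-0.77 ± 0.24, limma adjusted p = 0.0341) and not with PE (-0.33) or in vehicle (-0.32). With classes by symbol, these 2 genes held 40.4 to 47.1% of the summed H3 level in JQ1 libraries and 27.7 to 38.7% in DMSO libraries.

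H4, the least variable histone protein, was read mostly from 5 genes of chromosome 17 that share the symbol Hist2h4a, and these went different ways. Hist2h4a (57690) had in vehicle 52.6 and 73.5 FPKM with JQ1, against 87.3 and 112 FPKM with DMSO, and was called lower with ET-1, PE and in vehicle (-1.13, -0.75 and -0.66). Hist2h4a (54017) had in ET-1 57.4 and 64.7 FPKM with JQ1, against 36.3 and 31.1 FPKM with DMSO. Cells with PE had 65.9 and 72.6 FPKM with JQ1, against 29.7 and 30.5 FPKM with DMSO, and in vehicle 58.5 and 67.8 FPKM with JQ1, against 34.7 and 38.5 FPKM with DMSO. Here the JQ1 libraries were the higher ones in every treatment, with log2 differences of 0.85 ± 0.12 with ET-1, 1.19 ± 0.12 with PE and 0.78 ± 0.12 in vehicle (limma adjusted p = 0.00103, 0.000281 and 0.00214). Its model is unlike the others, with 2 exons and 1296 nt where the other 4 have 1 exon of 312 nt. Hist2h4a (50933), the highest of them, had in vehicle 334 and 407 FPKM with JQ1, against 295 and 300.0 FPKM with DMSO. It was not called, with -0.13, 0.04 and 0.31, and the PE value was -0.011 with FPKM as deposited. The other two, 51891 and 58444, were called lower with ET-1 (-0.55 and -0.61), and 51891 also with PE (-0.41). Hist1h4m on chromosome 4 had log2 differences of 0.00, 0.12 and 0.10 and was not called.

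The linker histones split as well. Hist1h1c (chromosome 17, 43639749 to 43640387), the gene of H1.2 and the highest of all members on average, had in ET-1 514 and 410.2 FPKM with JQ1, against 318 and 311 FPKM with DMSO. In PE it had 559.7 and 516 FPKM with JQ1, against 241 and 249 FPKM with DMSO, and in vehicle 462 and 464 FPKM with JQ1, against 260.0 and 282 FPKM with DMSO. The JQ1 libraries were the higher ones in every treatment, and all 6 lay above all 6 DMSO libraries. Its log2 difference was 0.55 ± 0.12 with ET-1, 1.13 ± 0.12 with PE and 0.77 ± 0.12 in vehicle (limma adjusted p = 0.00955, 0.000425 and 0.00275). The ET-1 call was lost with FPKM as deposited (adjusted p = 0.108), with the 4 compared libraries alone (0.101) and without replicate 2 of ET-1 with DMSO (0.0527).

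Hist1h1e, the gene of H1.4, went the other way. It had in ET-1 44.4 and 39.99 FPKM with JQ1, against 92.3 and 103 FPKM with DMSO. In PE it had 50.1 and 47.2 FPKM with JQ1, against 73.8 and 78.03 FPKM with DMSO, and in vehicle 54.5 and 68.5 FPKM with JQ1, against 78.3 and 103 FPKM with DMSO. The JQ1 libraries were the lower ones in every treatment, with log2 differences of -1.20 ± 0.15 with ET-1, -0.64 ± 0.15 with PE and -0.56 ± 0.15 in vehicle (limma adjusted p = 0.000790, 0.0138 and 0.0275). The vehicle call was lost without replicate 1 of vehicle with JQ1 (adjusted p = 0.158) or replicate 2 of vehicle with DMSO (0.151), and the PE call without replicate 2 of PE with JQ1 (0.0713) or with DMSO (0.0718). Hist1h1d (H1.3) fell with ET-1 and in vehicle (-0.79 and -0.46), Hist1h1b (H1.5) with ET-1 and PE (-1.18 and -0.73), and Hist1h1a (H1.1) with ET-1 (-1.14). Hist1h1a was called lower with PE (-0.59) only with the replicate number in the model (limma adjusted p = 0.0456, against 0.214 without it). Hist1h1c held 74.5 to 82.5% of the summed H1 level in JQ1 libraries and 54.8 to 59.6% in DMSO libraries.

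**Figure D2:**
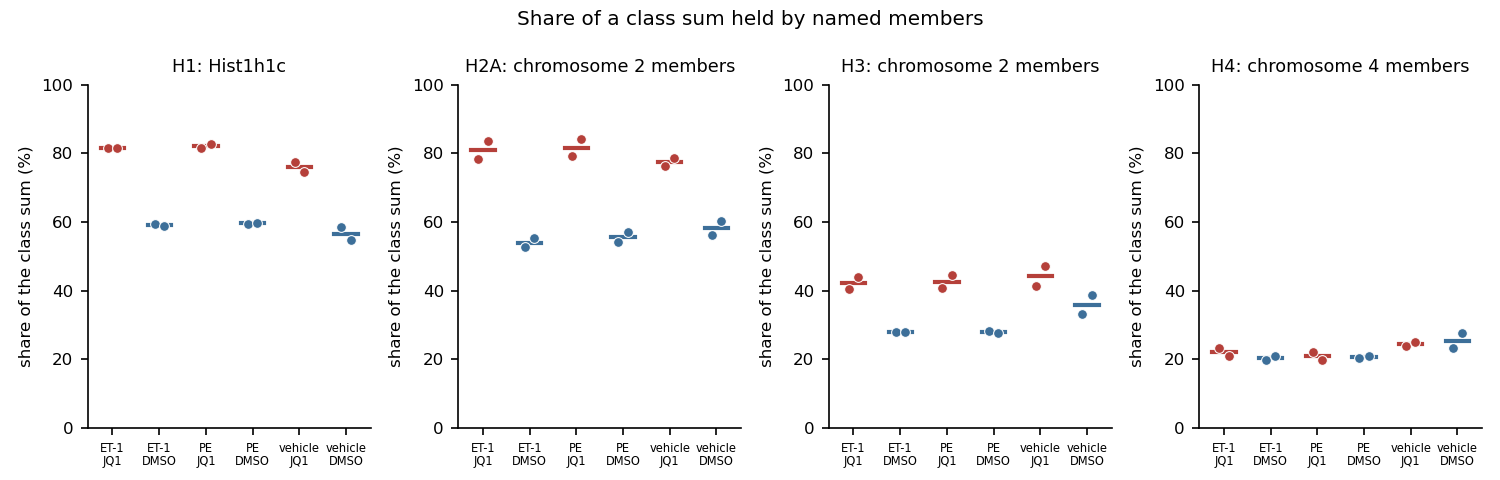
Share of a class sum (y axis, %) held by Hist1h1c in H1, by the chromosome 2 members in H2A and H3 and by the chromosome 4 members in H4, with 1 point per library, bars at the group mean, and JQ1 in red left of DMSO in blue. Classes are by symbol. JQ1 libraries lie above DMSO libraries for H1, H2A and H3, while for H4 they overlap, at 19.9 to 24.95% with JQ1 and 19.8 to 27.6% with DMSO.

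Class sums depend less than single copies on how reads were split among copies of a class. They are not free of it, since FPKM divides by model length, which differs within a class. Hist2h4a (54017), for one, has 1296 nt where the other H4 models have 312 nt. The sums are given without a test, and the members were chosen with earlier results of these data known. Summed H3 was 237 and 179 FPKM in ET-1 with JQ1, against 629.8 and 449 FPKM in ET-1 with DMSO, a log2 ratio of -1.37. It was 253 and 197 FPKM in PE with JQ1, against 451 and 382 FPKM in PE with DMSO (-0.89). In vehicle it was 339 and 429 FPKM with JQ1, against 517 and 609.8 FPKM with DMSO (-0.55). The groups did not overlap in any treatment. Summed H2B had log2 ratios of -0.96 with ET-1, -0.63 with PE and -0.54 in vehicle, also without overlap.

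Summed H1 was higher under JQ1 in PE, at 687 and 625 FPKM, against 406 and 418 FPKM with DMSO (log2 ratio 0.67), and in vehicle, at 595 and 623 FPKM, against 445 and 514.5 FPKM (0.34). In ET-1 it was 630.3 and 503 FPKM with JQ1, against 536 and 528 FPKM with DMSO, and the groups overlapped. Only Hist1h1c, 1 of the 5 tested H1 members, had a positive JQ1 difference, and it did so in each treatment. Summed H2A had log2 ratios of -0.60 with ET-1, -0.18 with PE and -0.11 in vehicle, and summed H4 -0.33, -0.12 and 0.02, with overlap in vehicle for both. If members were put into classes by coding length instead of symbol, an alternative chosen after the data were seen, the H2A ratios were -0.35, 0.06 and 0.06 and the H4 ratios -0.54, -0.28 and -0.11. Over all members the sum was 2986 and 2666 FPKM in ET-1 with JQ1, against 4516 and 3644 FPKM in ET-1 with DMSO (-0.53), and the ratios in PE and vehicle were -0.14 and -0.11.

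**Figure D3:**
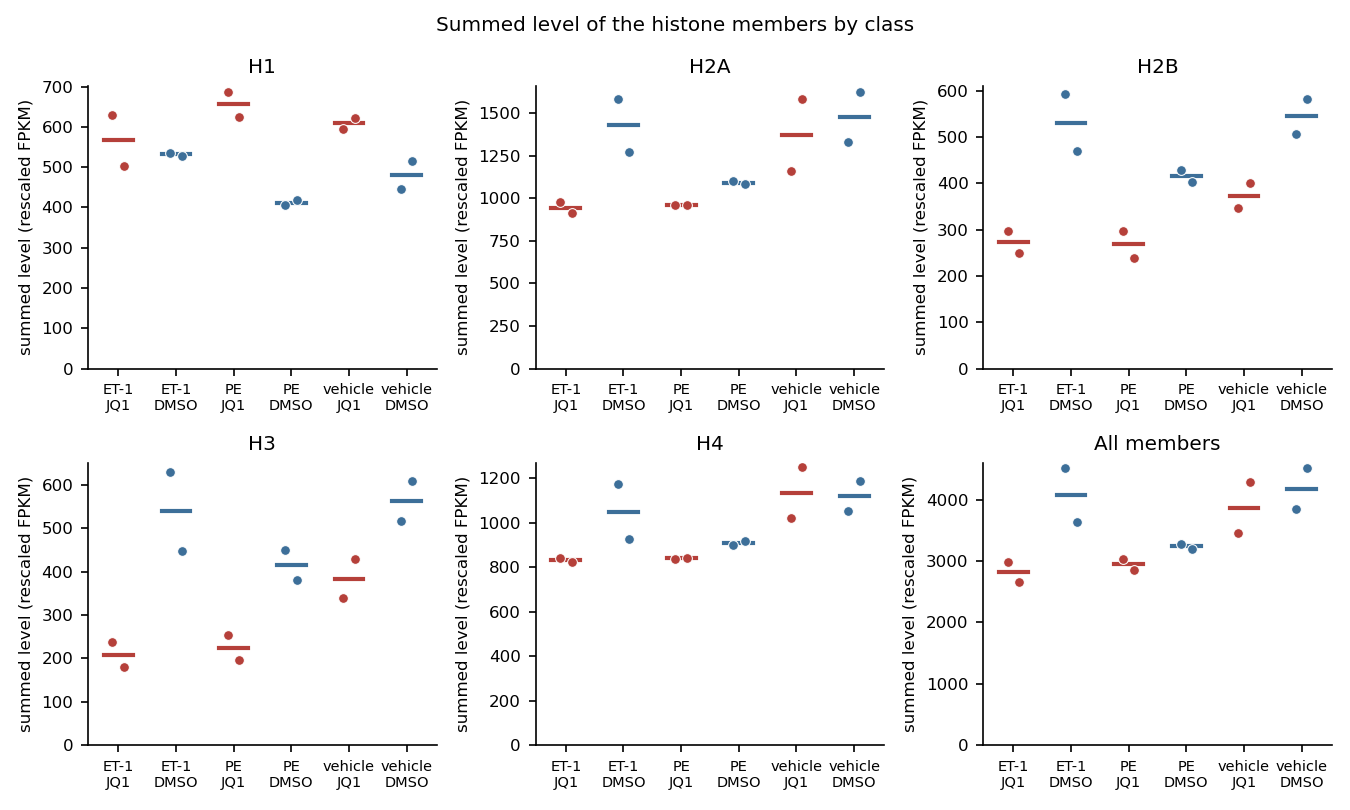
Summed level (y axis, rescaled FPKM, from 0) of the histone members by class and over all 45, with 1 point per library, bars at the group mean, and JQ1 in red left of DMSO in blue. H2B and H3 sums are lower under JQ1 in all 3 treatments without overlap. H1 sums, held mostly by Hist1h1c, are higher under JQ1 in PE and vehicle, and vehicle H2A and H4 sums overlap.

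The JQ1 log2 difference was lower in ET-1 than in vehicle for all members but 1 of the 44, with a median gap of -0.56 against 0.01 over all genes. No member passed the limma test of that gap itself, where 0.0% of all genes were called in either direction. An unadjusted limma p under 0.05 was held by 16 members and by 616 of all 13793 genes. With the replicate number in the model 0 members were called and 24 had such a p, where 1415 of all genes did. In that model 0.0145% and 0.0218% of all genes were called higher and lower. Without replicate 2 of vehicle with JQ1 the median gap was -0.36, and 3 gaps were positive. Between PE and vehicle the median gap was -0.18, with 11 positive, again with 0 called. At an unadjusted limma p under 0.05 was 1 member, beside 717 of all 13793 genes. With the replicate number in the model 0 were called and 2 were at such a p, beside 1716 of all genes. In that model 0.0363% of all genes were called in each direction. The median PE gap rested on single libraries: it was -0.31 without replicate 1 of vehicle with JQ1, -0.28 without replicate 2 of vehicle with DMSO, -0.07 without replicate 1 of vehicle with DMSO or replicate 2 of PE with JQ1, and 0.0022 without replicate 2 of vehicle with JQ1, where 22 gaps were positive. The ET-1 and PE gaps share the vehicle libraries.

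Most genes of DNA copying fell under JQ1. Of 25 tested genes of DNA replication and S phase, 24 were called lower with ET-1, 23 with PE and 21 in vehicle, with median log2 differences of -1.60, -1.31 and -0.76. Of all tested genes 19.6%, 19.0% and 16.7% were lower and 17.9%, 17.5% and 15.3% higher in these treatments. Fen1, the flap endonuclease of lagging-strand synthesis, had in vehicle 7.39 and 7.35 FPKM with JQ1, against 15.8 and 18.9 FPKM with DMSO (log2 difference -1.18 ± 0.13, limma adjusted p = 0.000584). Cdc45 and Mcm10, parts of the replication fork, had -1.16 and -1.05 in vehicle, both called. The JQ1 libraries lay below the DMSO libraries for the summed level of the list, at 254 to 356 FPKM against 518 to 702 FPKM. Of 9 mitosis genes, 9 fell with ET-1, 9 with PE and 3 in vehicle, the 3 being Plk1 (-0.71), Top2a (-0.78) and Mki67 (-0.50). The vehicle count of mitosis genes was 6 with the replicate number in the model, beside 27.9% of all genes.

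Histone genes outside the clustered set moved the other way in part. The 10 tested were H3f3a, H3f3b, H2afz, H2afv, H2afx, H2afj, H2afy, H2afy2, H1fx and Cenpa. Of these, 5 were called higher with ET-1, 6 with PE and 5 in vehicle, and 2, 2 and 1 were called lower. Of all tested genes 17.9%, 17.5% and 15.3% were higher and 19.6%, 19.0% and 16.7% lower. H3f3b, a gene of H3.3, had in vehicle 323 and 244 FPKM with JQ1, against 95.02 and 80.8 FPKM with DMSO (log2 difference 1.68 ± 0.16, limma adjusted p = 0.000373). H3f3a, the other H3.3 gene, had 468 and 510.3 FPKM with JQ1, against 285 and 301 FPKM with DMSO (0.74 ± 0.09). The JQ1 libraries were the higher ones for both. H2afy2, the gene of macroH2A2, had 0.229 and 0.0438 FPKM with JQ1, against 2.02 and 1.71 FPKM with DMSO (-1.91 ± 0.24), and these low levels understate its change.

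Of 15 chaperone genes (14 symbols), 6 fell with ET-1, 4 with PE and 3 in vehicle, and 1 rose, with ET-1. In vehicle these were Asf1b, a carrier of H3 and H4 (-1.07), Ssrp1 of the FACT complex (-0.57) and Chaf1a of CAF-1 (-0.41). Of 11 genes for histone transcription and mRNA 3′ processing, 3 fell with ET-1, 2 with PE and 2 in vehicle, and 1 rose in each. Of all tested genes 19.6%, 19.0% and 16.7% were called lower in these treatments, and 17.9%, 17.5% and 15.3% higher. In vehicle the fallen counts of both lists lay near the share of all genes. The model with the replicate number gave 4 fallen and 2 risen of these 11 with PE, and 3 and 2 in vehicle. In that model 29.7% of all genes were lower with PE and 27.9% in vehicle, and 24.9% were higher in vehicle. In vehicle Lsm11 and Lsm10, the proteins special to the U7 particle that cuts histone mRNA, fell (-0.88 and -0.51), and Eri1, an exonuclease that trims its end, rose (0.32).

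Fibroblast markers also had lower levels with JQ1 than with DMSO at the same replicate number. Of 10 fibroblast markers, 0 were called in any treatment by limma, and 10 were called lower in each with the replicate number in the model, where 29.8%, 29.7% and 27.9% of all genes were with ET-1, PE and in vehicle. They had median log2 differences of -0.79 with ET-1, -0.66 with PE and -1.11 in vehicle. Their summed level was 513 and 112 FPKM in ET-1 with JQ1, against 891 and 217 FPKM with DMSO, 642 and 123 FPKM in PE with JQ1, against 973 and 222 FPKM, and 667 and 149.9 FPKM in vehicle with JQ1, against 1351 and 332 FPKM. Col1a1, a defining collagen, was above 0 in every library. The fibroblast sum was higher in replicate 1 of every group, and the histone sum over all members was higher in replicate 1 of both ET-1 and both PE groups and in replicate 2 of both vehicle groups. Of 5 smooth muscle markers, 2 were called lower with ET-1, 2 with PE and 1 in vehicle, and 4 in each with the replicate number in the model. Of the 3 endothelial and the 3 macrophage markers that were tested, 0 were called by limma, and with the replicate number in the model 2 or 3 of each list were called lower. Of the 8 cardiomyocyte markers 1, Tnnt2, was called higher in each treatment (0.98, 1.09 and 1.08), and 2, 2 and 0 were called lower (2 in vehicle with the replicate number in the model). The cardiomyocyte medians were -0.08 with ET-1, -0.02 with PE and 0.01 in vehicle. Of all tested genes 19.6%, 19.0% and 16.7% were called lower, and 17.9%, 17.5% and 15.3% higher. The part of other cells in the histone differences was not tested, and in bulk RNA fewer cells of a type and less RNA per cell cannot be told apart.

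**Figure D4:**
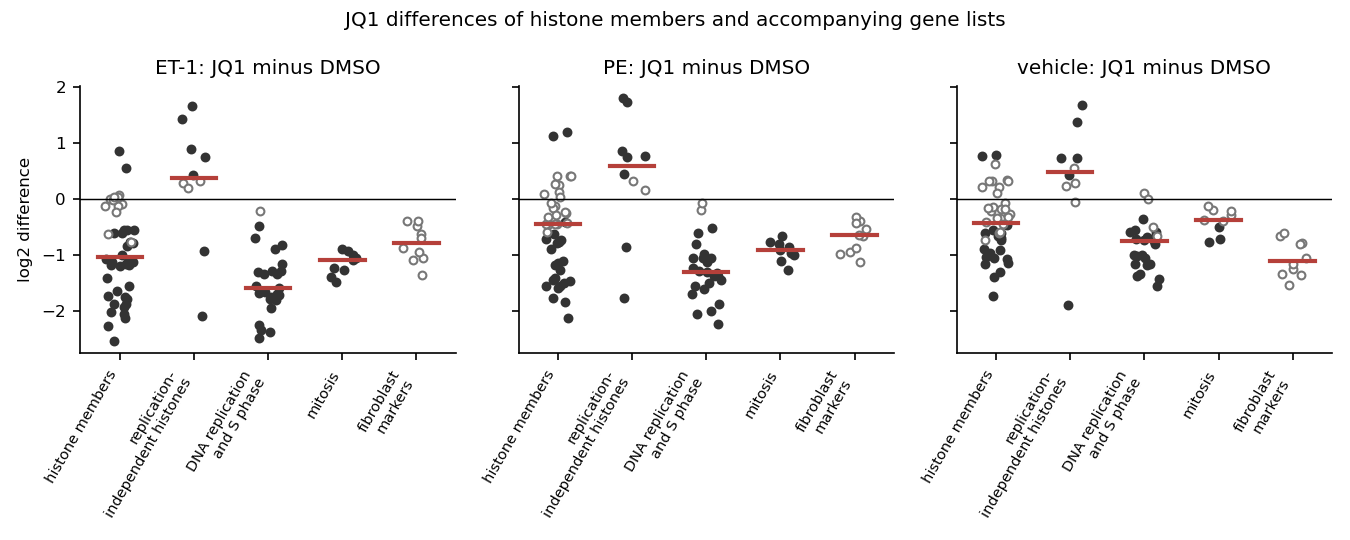
Log2 difference (JQ1 minus DMSO, y axis) of the 44 tested histone members and of 4 gene lists in ET-1, PE and vehicle, with 1 point per gene (filled where called by limma, open where not) and a red bar at the median. Medians of the histone members and of the replication, mitosis and fibroblast lists lie below 0 in each panel. That of the histone genes outside the clustered set, labelled replication-independent, lies above 0.

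Without JQ1, ET-1 left the histone genes with no common direction. Of the 44 members 21 had a positive difference from vehicle, the median was -0.01 against -0.02 over all genes, and 0 were called, where 1.31% of all genes were called higher and 1.57% lower. None had an unadjusted limma p under 0.05, where 2800 of all 13793 genes did. With the replicate number in the model 0 were called and 4 had such a p, where 4915 of all genes did. In that model 8.89% and 9.5% of all genes were called higher and lower. The replicates stood opposite each other: the sum over all members was 4516 FPKM in ET-1 replicate 1, against 3851 FPKM in vehicle replicate 1, and 3644 FPKM in ET-1 replicate 2, against 4518 FPKM in vehicle replicate 2. Hist1h1c had 318 and 311 FPKM with ET-1, against 260.0 and 282 FPKM in vehicle (0.22 ± 0.12, limma adjusted p = 0.372), and the groups were apart.

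With PE every tested histone gene had a lower mean than in vehicle, and none passed the test alone. The 44 log2 differences had a median of -0.40 against -0.01 over all genes. None was called, where 2.89% of all genes were called higher and 3.18% lower. Of the members 18 had an unadjusted limma p under 0.05, as did 3191 of all 13793 genes. With the replicate number in the model 8 were called lower, which is 18.2% of them, where 11.8% of all genes were called higher and 12.2% lower. These were Hist2h3c2 (60366), Hist1h4m, Hist2h2be, Hist3h2bb, Hist1h2af, Hist1h1d and the single signal of Hist1h4b and Hist2h4. That count was 0 without replicate 1 or 2 of PE with DMSO or replicate 2 of vehicle with DMSO, and 3 without replicate 1 or 2 of PE with JQ1.

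Hist2h3c2 (60366) on chromosome 2 had 66.2 and 56.3 FPKM with PE, against 92.7 and 128 FPKM in vehicle, and the groups were apart. Its log2 difference was -0.83 ± 0.24, the lowest of the members (limma adjusted p = 0.0791, and 0.0399 with the replicate number in the model). Hist2h2be had 2.95 and 2.59 FPKM with PE, against 4.70 and 4.14 FPKM in vehicle (-0.59 ± 0.17, adjusted p = 0.0773 and 0.0131). Hist1h4m had 106 and 114 FPKM with PE, against 143 and 194 FPKM in vehicle (-0.59 ± 0.18, adjusted p = 0.0948 and 0.0471). The PE libraries were the lower ones in each of the 3. Nearest to 0 was Hist2h4a (50933), with 289.6 and 280.0 FPKM with PE, against 295 and 300.0 FPKM in vehicle (-0.06).

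The class sums showed the same direction with PE in all 5 classes. Summed H2A was 1099.6 and 1085 FPKM with PE, against 1329.7 and 1624 FPKM in vehicle, a log2 ratio of -0.44. Summed H4 was 901 and 918 FPKM with PE, against 1052 and 1187 FPKM in vehicle (-0.30). The ratios were -0.44 for H3, -0.39 for H2B and -0.22 for H1, and the PE libraries lay below the vehicle libraries in each class. The 25 genes of DNA replication had a median of 0.13 and 0 calls with PE, and of the mitosis genes Aurka (0.46) and Ccnb1 (0.42) were called higher. Of the histone genes outside the clustered set H2afv (-0.62), a gene of H2A.Z, and H3f3a (-0.42) were called lower. Fibroblast markers had a median of -0.37, with 0 called and 4 called lower with the replicate number in the model, and their part was not tested. Set against ET-1, all 44 members were lower with PE, with a median of -0.35 against 0.00 over all genes. Of these 0 were called, where 0.0% of all genes were called higher and 0.00725% lower. An unadjusted limma p under 0.05 was held by 6 members, beside 206 of all 13793 genes. With the replicate number in the model these were 12 and 653.

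**Figure D5:**
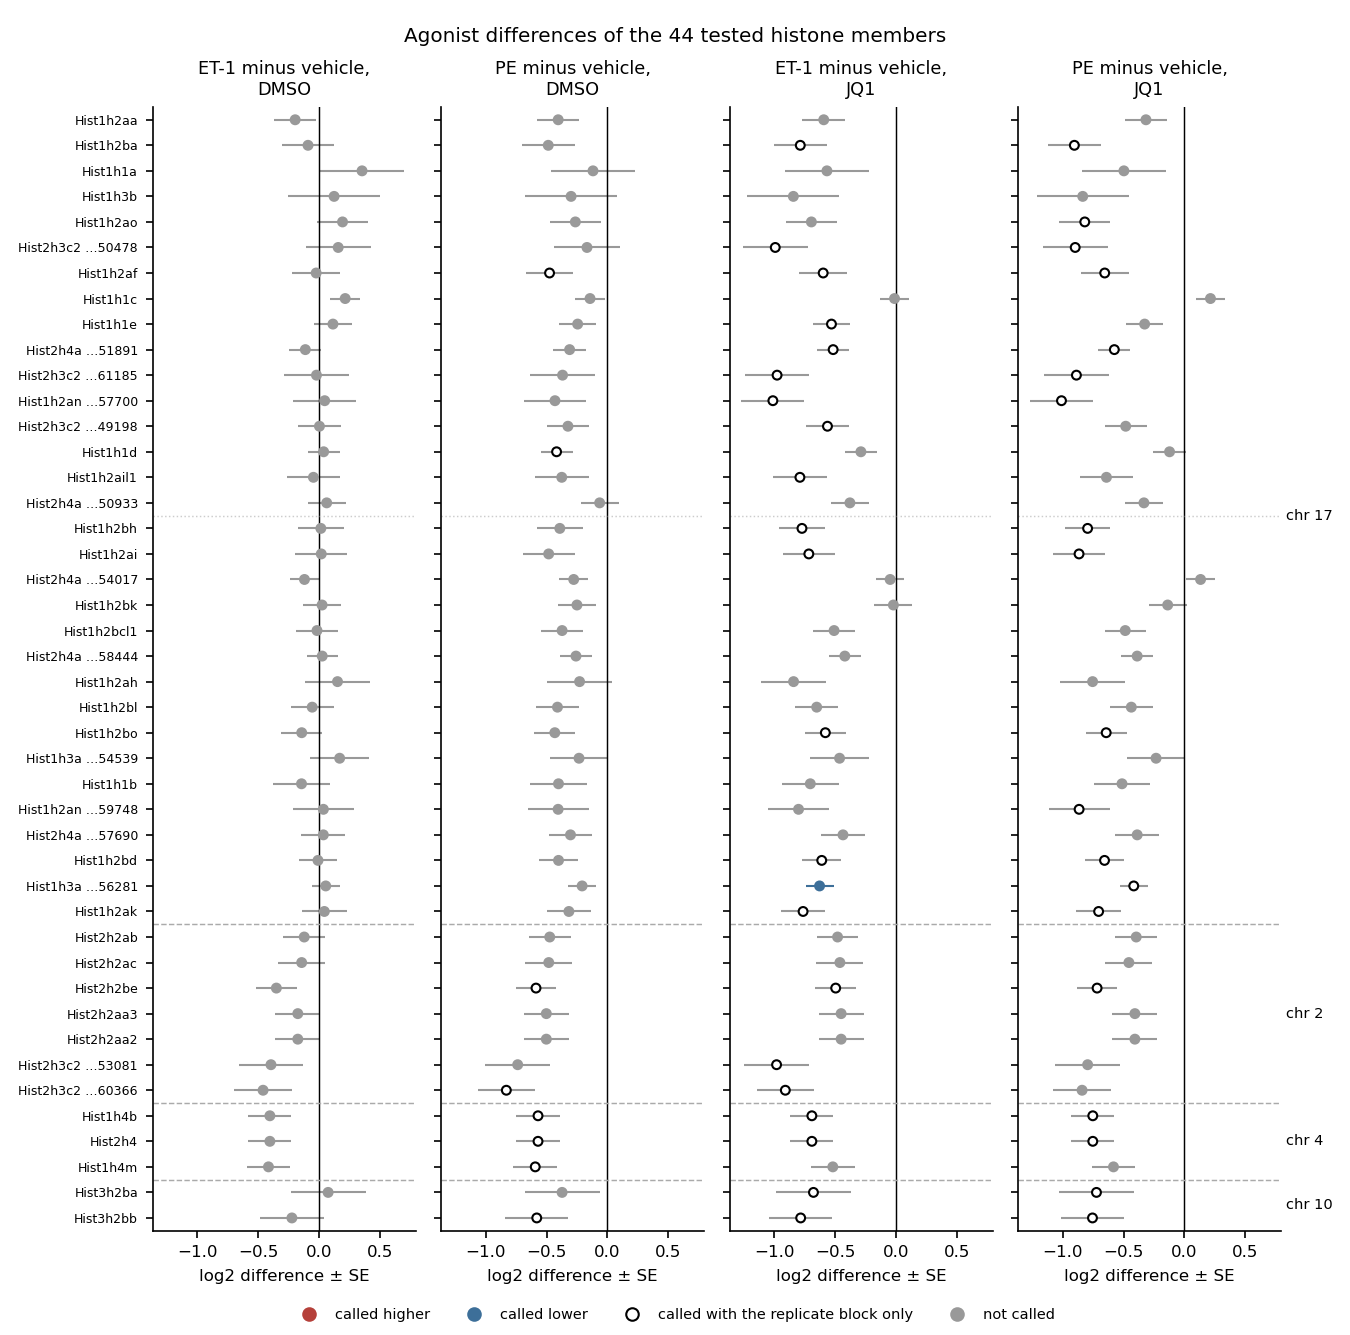
Log2 difference from vehicle (x axis, ± SE) of the 44 tested histone members (y axis, in genome order by chromosome) for ET-1 and PE with DMSO and with JQ1, marked by call as in the plot of the JQ1 differences. With DMSO the ET-1 values lie on both sides of 0 and the PE values all left of it, and under JQ1 nearly all lie left of 0.

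Under JQ1 both agonists went with lower levels of most histone genes than vehicle, in comparisons that share the vehicle libraries. With ET-1 all 44 members had a negative difference, with a median of -0.60, and 1 was called lower, where 0.319% of all genes were called higher and 1.04% lower. That member, Hist1h3a (56281), had 3.79 and 3.65 FPKM with ET-1, against 5.69 and 6.37 FPKM in vehicle (-0.63 ± 0.12, limma adjusted p = 0.0473), and its call was lost without any one of the 12 libraries. With the replicate number in the model 22 were lower, where 4.92% of all genes were called higher and 6.68% lower, but 0 were without replicate 2 of ET-1 with JQ1 or of vehicle with JQ1, 5 without either PE library with DMSO and 12 without either PE library with JQ1.

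With PE under JQ1, 2 of the 44 members had a positive difference, and the median was -0.61. None was called, where 0.384% of all genes were called higher and 0.334% lower. Of the members 30 had an unadjusted limma p under 0.05, as did 2246 of all 13793 genes. With the replicate number in the model 19 were lower, where 6.17% of all genes were called higher and 5.89% lower. That count was 0 without replicate 2 of PE with JQ1 or of vehicle with JQ1, 1 without replicate 1 of PE with JQ1 and 6 without either PE library with DMSO. The 2 positive members were Hist1h1c, with 559.7 and 516 FPKM in PE, against 462 and 464 FPKM in vehicle (0.21 ± 0.12), and Hist2h4a (54017), with 65.9 and 72.6 FPKM, against 58.5 and 67.8 FPKM (0.13 ± 0.12). Neither was called, and they are the 2 members that rose under JQ1 in every treatment. Summed H3 was the class furthest below vehicle under JQ1, with log2 ratios of -0.88 for ET-1 and -0.77 for PE, and the agonist libraries lay below the vehicle libraries in both. Summed H1 was not lower with PE, at 687 and 625 FPKM, against 595 and 623 FPKM in vehicle (0.11). With ET-1 the H1 ratio was -0.10 and the groups overlapped.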

How the data were processed

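The deposited tables listed 41078 transcripts with FPKM and mean coverage, a signal per base, per the file headers. Per the submitters' processing notes, the tools listed were StringTie 1.3.4d, STAR 2.7.1a, Trim Galore 0.6.0 and DESeq2 1.24.0, with build rn6 (Rnor_6.0). The authors' FPKM values were summed by gene and rescaled with factors of 0.873 to 1.127, each the median of ratios over 15551 genes, and coverage gave covered bases. FPKM are not counts, so limma 3.58.1 (R 4.3.3, trended and robust moderation) was fitted to log2(FPKM + 0.5), with 6 group means over 12 libraries. Low genes' changes are understated on that scale, and reads shared by near-identical copies were split by the authors' quantification. Tables were read with Python 3.11.15, and the fit was tested on simulated data.

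Replicate numbers paired the libraries: deviations from group means correlated at 0.155 to 0.671 over the 15 pairs of groups, so results with the number as a block stand beside those they change. Members, gene lists and motifs were chosen with earlier results of these data known. Members were named if called in any comparison, highest in their class, extreme, or known as polyadenylated or testis forms. List genes were named by smallest p, up to 3 per list for JQ1 in vehicle and PE without JQ1.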

Additional observations from a re-analysis of the deposited data

How the results depend on the processing

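The total counts of histone genes called with JQ1 stayed within 1.5 times of the reported ones in ET-1 and PE under every alternative run, and in vehicle under all but leave-one-out, where they ranged over 7 to 25. With the replicate number as a block, the count was 8 for PE against vehicle, 22 for ET-1 and 19 for PE against vehicle under JQ1, and the pairing of replicates moved the total count of no other comparison by more than 1.5 times. It raised the members higher under JQ1, averaged over the treatments, to 6, against 2. The single call for ET-1 under JQ1 became 0 with a pseudocount of 1, without the filter, with FPKM as deposited and with the compared libraries alone. Leaving out one library, with and without the block, gave 0 to 24 calls for ET-1 and 0 to 24 for PE under JQ1, and 0 to 11 for PE without JQ1.

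The log2 ratio of the summed members for PE against vehicle was -0.49 with FPKM as deposited and -0.48 to -0.25 with one library left out. It was -0.48 to -0.17 for PE against ET-1 and -0.54 to -0.23 for PE under JQ1 with one left out. For JQ1 in PE it was -0.19 as deposited and -0.026 from covered bases. Classed by coding length, H2A sums turned to positive for JQ1 in PE and vehicle (both 0.06) and the H4 sum to -0.11 in vehicle. Among named members, signs turned only for those not called. With FPKM as deposited, Hist2h2aa3 had -0.066 for JQ1 in ET-1 and Hist2h4a (50933) -0.011 in PE. With one library left out, Hist2h2aa3 ranged over -0.18 to 0.26 in ET-1, Hist2h2ac over -0.33 to 0.13 in ET-1 and -0.058 to 0.50 in vehicle, Hist1h2bk over -0.23 to 0.091 in PE, and Hist2h4a (50933) over -0.39 to 0.13 in ET-1 and -0.023 to 0.11 in PE. The cause of these shifts was not tested. Copies that share reads and 2 libraries a group limit what single members can show.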
